A study of Mus musculus with 4 samples.

Results

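The Hox genes encode homeodomain transcription factors that give body segments their identity. Mice carry them in 4 clusters, Hoxa on chromosome 6, Hoxb on chromosome 11, Hoxc on chromosome 15 and Hoxd on chromosome 2. The protein-coding genes of the mm10 RefSeq annotation whose symbol is Hoxa, Hoxb, Hoxc or Hoxd followed by a number were taken, which gave 39 of 21887 protein-coding genes (11 Hoxa, 10 Hoxb, 9 Hoxc and 9 Hoxd). A peak was given to a gene when its midpoint lay inside the gene or within 10 kb of either end. All peaks inside the span of each cluster, from the outermost end of its first Hox gene to that of its last, and within 100 kb beyond either end were described as well. These were 38 of the 68763 peaks listed for the series.

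The peaks mark where overexpressed, BLRP-tagged MafG was recovered from mouse liver chromatin by immunoprecipitation and sequencing (ChIP-seq). MafG belongs to the small MAF proteins, bZIP factors that carry no transactivation domain and bind DNA as dimers. The study used C57BL6/J mice: 2 libraries came from livers with the treatment labelled Ad BLRP MAFG and 2 from livers labelled Ad BLRP Control, all precipitated with an Avi-tag antibody. The deposited result is 1 list of peaks called in 1 BLRP-MafG tag collection of 20406492 tags over 1 control collection of an implied 1.72e+07 tags, and the headers do not say if a collection pools both libraries or holds 1. No value per library, no standard deviation and no test between animals can therefore be given. Intervals given below are exact 95% intervals for the counting of tags alone. The protein was overexpressed and tagged, so the peaks may include sites that MafG at its native level does not occupy. A peak list holds no expression values, and the labelled tissue could not be checked against marker genes.

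Within a cluster, Hox genes lie in the order in which they act along the body axis, with low-numbered genes towards the head and high-numbered genes towards the tail. Genes with the same number in different clusters are paralogues. Polycomb complexes keep Hox genes silent where they are not used, and trithorax proteins such as KMT2A keep them active. Retinoic acid induces the low-numbered genes, and Hox proteins bind DNA together with PBX and MEIS cofactors. The clusters also hold microRNA genes.

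The peak that lay closest to a listed Hox start stood just before the upstream start of Hoxa3, a group 3 gene of hindbrain and pharyngeal development. In the RefSeq model this start lies far from the coding part, between Hoxa6 and Hoxa7, so that the Hoxa3 gene of 44009 bp runs across Hoxa4, Hoxa5 and Hoxa6. The 250 bases before that start, at chr6:52213068-52213317 on the minus strand of GRCm38.p6, are shown with the 201 bases of the peak in capitals because the peak lies inside them from end to end.
Hoxa3 upstream: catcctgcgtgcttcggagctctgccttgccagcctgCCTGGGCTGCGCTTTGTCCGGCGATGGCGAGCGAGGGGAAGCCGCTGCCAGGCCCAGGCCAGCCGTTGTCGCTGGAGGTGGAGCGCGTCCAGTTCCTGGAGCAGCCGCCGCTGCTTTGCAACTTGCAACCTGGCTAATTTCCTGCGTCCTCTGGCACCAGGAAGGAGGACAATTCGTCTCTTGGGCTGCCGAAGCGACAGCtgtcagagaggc
The stretch is 64.8% G and C. On neither strand does it hold TGANNNNGC, the core of the antioxidant response element, TGCTGA, the flank and half-core of the MAF recognition element, or TGACTCA, the AP-1 site.

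Both microRNA families that the clusters share, miR-10 and miR-196, are shown because their genes lie in or between the Hox genes. The capitals mark the seed, bases 2 to 8, which the members of a family have in common.
mmu-miR-10a-5p: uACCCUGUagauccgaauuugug
mmu-miR-10b-5p: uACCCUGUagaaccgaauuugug
mmu-miR-196a-5p: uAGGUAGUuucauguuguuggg
mmu-miR-196b-5p: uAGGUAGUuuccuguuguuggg
Of these, miR-196b-5p lay closest to a peak, 2285 bp from the highest peak of the Hoxa span. The copy of miR-196a-5p in Hoxb was 5967 bp from its nearest peak and the copy in Hoxc 24383 bp. The nearest peaks to miR-10a-5p in Hoxb and miR-10b-5p in Hoxd lay 10990 bp and 12814 bp away. The sequences are RefSeq's, with positions on GRCm38.p6.

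Few Hox genes had a peak close by. Of the 39, 16 (41.0%) had a listed peak inside or within 10 kb, against 74.5% of all protein-coding genes. Inside the gene itself the count was 4 (10.3%) against 50.5%, and within 1 kb it was 5 (12.8%) against 56.8%. No Hox gene had a peak of 50 or more tags per 10000000 within 10 kb, a height that 17.1% of all protein-coding genes had near them. Among protein-coding genes in the length range of Hox genes, 1693 of 14013 had one. Neighbouring Hox genes share peaks, so the Hox count of 0 rests on fewer peaks than genes.

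Gene length moved with these shares. The Hox genes had a median length of 3737 bp, against 17169 bp for all protein-coding genes. Of the 24 Hox genes under 5 kb, 10 (41.7%) had a peak within 10 kb. The share was 46.8% over the 5034 protein-coding genes of that length, and 53.8% without olfactory and vomeronasal receptor genes. For short genes the Hox share thus stood near its background at 10 kb, but not at every window: within 1 kb it was 8.33% against 18.2%, and within 20 kb 79.2% against 62.8%. Of the 15 Hox genes of 5 kb or more, 6 (40.0%) had a peak, against 76.7% of 11346 protein-coding genes from 5 kb up to the length of Hoxa3. Crowding was compared in the same way. Of the 33 Hox genes with 5 or more other protein-coding genes within 50 kb, 15 (45.5%) had a peak, against 75% of all protein-coding genes so placed. The part of length in the lower Hox share was not tested further, and 15 genes of 5 kb or more are few.

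**Figure D1:**
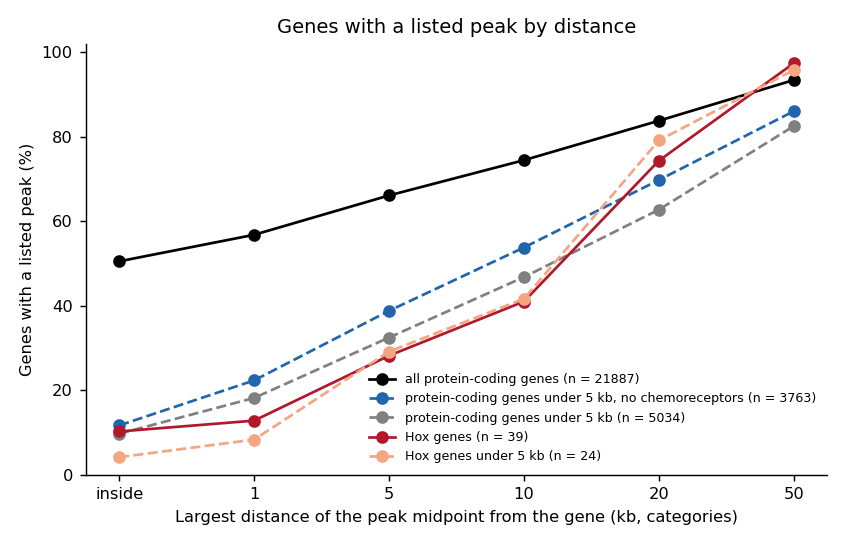
Share of genes (%, vertical) with a listed peak inside the gene or within 1, 5, 10, 20 or 50 kb of it (horizontal, unequal steps), for Hox genes, Hox genes under 5 kb, all protein-coding genes and protein-coding genes under 5 kb with and without olfactory and vomeronasal receptors. At 10 kb the Hox genes stand at 41.0%, below all genes at 74.5%, and at 50 kb they reach 97.4%, above the 93.5% of all genes.

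From 1 kb on, the gap to all genes narrowed as the window grew. With a window of 20 kb, 29 Hox genes (74.4%) had a peak, against 83.8% of all protein-coding genes. With 50 kb the count was 38 (97.4%), against 93.5%. The plot of shares by distance shows the Hox line crossing that of all genes between these windows. Hox genes are close neighbours and share peaks, so these counts are not independent: the 16 genes rested on 12 distinct peaks in 25 pairings of gene and peak. The most shared peak, the one just before the Hoxa3 start, lay within 10 kb of 5 Hox genes.

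The clusters differed in how many genes had a peak within 10 kb: 6 of 11 in Hoxa, 3 of 10 in Hoxb, 1 of 9 in Hoxc and 6 of 9 in Hoxd. Without Hoxc the share over the other clusters was 50.0%, and without Hoxd it was 33.3%. By position along the axis, 3 of 8 genes of groups 1 to 3, 6 of 15 of groups 4 to 8 and 7 of 16 of groups 9 to 13 had a peak. These 3 shares at 10 kb, 37.5%, 40.0% and 43.8%, were close to each other. Within 1 kb they were 37.5%, 0% and 12.5%, where the genes of groups 1 to 3 with a peak were Hoxa3, Hoxb3 and Hoxd3. Hoxb1, Hoxd1, Hoxa2 and Hoxb2 were among the genes without a peak within 10 kb.

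**Figure D2:**
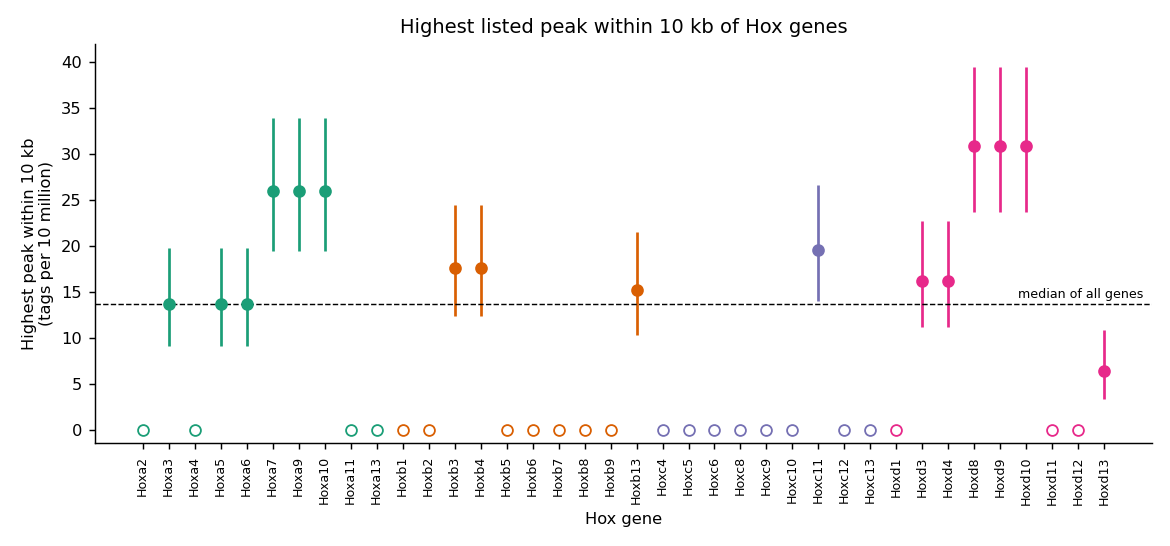
Highest listed peak within 10 kb of 38 of the 39 Hox genes, as BLRP-MafG tags per 10000000 (vertical), with genes in cluster and number order (horizontal) and 1 colour per cluster. Filled points carry exact 95% Poisson intervals, neighbouring genes at the same height share a peak, and open points at 0 are genes without a listed peak. The dashed line is the median of all protein-coding genes, 13.7, where genes without a peak count as 0. Over genes with a peak the median was 21.6 for all protein-coding genes and 17.6 for Hox genes. For protein-coding genes in the length range of Hox genes it was also 17.6.

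Inside the 4 spans lay 12 peaks, which were of ordinary height. Their median normalized tag count, the BLRP-MafG tags per 10000000, was 13.5, with a lowest value of 5.88 and a highest of 30.9. Over all listed peaks the median was 12.3, with quartiles of 7.84 and 23.5. The span peaks thus sat around the general median, 8 of the 12 at or above it, where 51.2% of all listed peaks stand. None of the 12 reached 50, a height that 9.87% of all listed peaks reach. A count of 0 in 12 allows up to roughly 25%, an approximate limit that takes the peaks as independent. The absence of tall peaks in the spans was thus not detectable as a difference. Over the surrounding 10 kb the deposited fold of the span peaks had a median of 11.5, against 16.2 over all listed peaks. The control held 0 tags in 5 of the 12 (41.7%), against 44.4% of all listed peaks.

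For their length, the spans held peaks at close to the density of the autosomes but below that of gene-dense stretches. Together they covered 492 kb with 2.44 peaks per 100 kb, against 2.74 over the 19 autosomes. Among autosomal tiles of 100 kb touching 5 or more protein-coding genes, a closer setting for a Hox cluster, the mean was 4.39 peaks and the median 4. Density was thus near the genome's mean and below that of gene-dense tiles. The summed tag count of listed peaks per 100 kb was 36.0 in the spans and 67.6 over the autosomes.

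**Figure D3:**
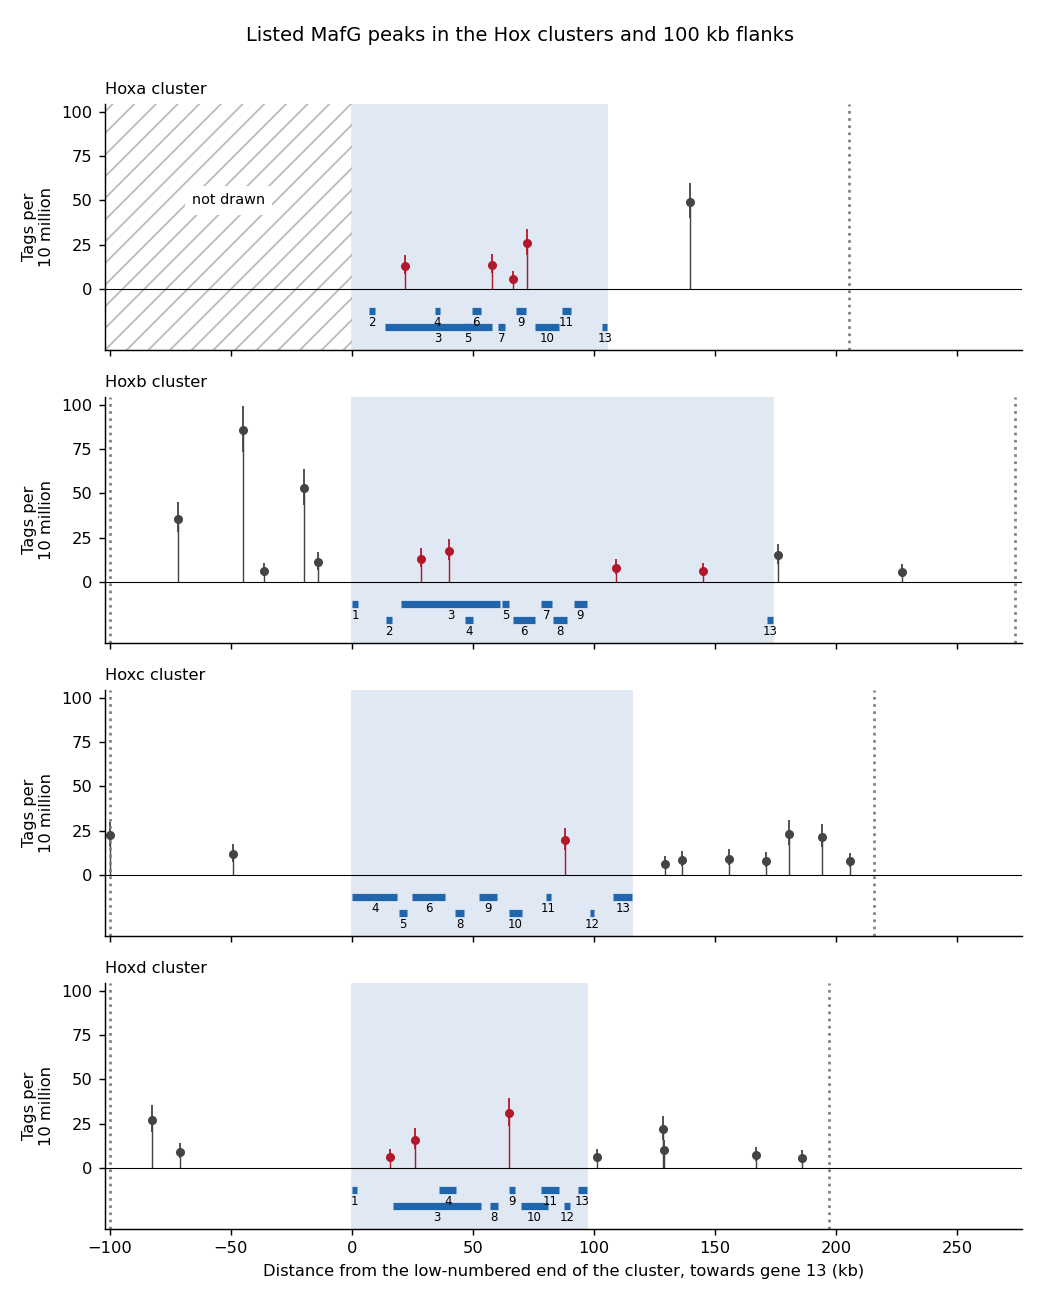
Listed peaks in the 4 Hox clusters (shaded) and 7 flanks of 100 kb (to the dotted lines), as BLRP-MafG tags per 10000000 with exact 95% Poisson intervals (vertical) against distance in kb from the low-numbered end towards gene 13 (horizontal). Red points lie inside a span and grey ones in a flank, blue bars are Hox genes with their numbers, and the 2 peaks above 50 both lie beyond Hoxb1. The hatched stretch of the Hoxa panel is not drawn, which does not mean that it holds no peak.

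In Hoxa the span of 106 kb held 4 peaks. The highest, of 26.0 (19.5 to 34.0), lay at chr6:52227744-52227944, between Hoxa9 and Hoxa10, genes of the posterior axis and of blood progenitors, and inside the lncRNA gene Gm52902. It stood 474 bp upstream of the Hoxa9 start, with 53 BLRP-MafG tags and 0 control tags, a ratio of 14.9 against a floor of 3 control tags (exact lower limit 11.7). This was the peak nearest to Mir196b. The peak just before the upstream Hoxa3 start, shown above, reached 13.7 (9.12 to 19.8) at chr6:52213080-52213280, with its midpoint 113 bp before the start. It held 28 BLRP-MafG and 2 control tags, a ratio of 11.8 (2.98 to 102.3), and also lies in the lncRNA gene Hoxaas3. The intervals of these 2 tag counts overlapped slightly.

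The other peaks of the Hoxa span were no higher. A peak of 13.2 (8.72 to 19.3) lay inside Hoxa3 at chr6:52177233-52177433, 178 bp into the opposite-strand lncRNA gene 5730596B20Rik. The lowest, of 5.88 (3.04 to 10.3), lay 1276 bp from Hoxa9 at chr6:52221721-52221921. Its deposited fold over the surrounding 10 kb was 4.63, just inside the 4-fold limit of the peak list. Between the peak inside Hoxa3 and the other 3 ran the longest stretch without a listed peak, of 35.8 kb. Hoxa2, a gene of hindbrain patterning, was 12502 bp from the nearest peak, and Hoxa4 was 12349 bp away. Hoxa11 and Hoxa13, genes of limb and urogenital development, were 14261 bp and 31009 bp away.

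In Hoxb, whose span of 174 kb is the longest because Hoxb13 stands apart, 4 peaks were listed. The higher 2 both lay inside Hoxb3, the paralogue of Hoxa3, with 17.6 (12.4 to 24.4) at chr11:96328098-96328298 and 13.2 (8.72 to 19.3) at chr11:96339448-96339648. The control held 1 tag at each, and their ratios were 30.4 (5.11 to 1232) for the first and 22.8 (3.75 to 932) for the second. The first also lay 6560 bp from Hoxb4, a gene used in blood stem cells. The other 2, of 8.33 and 6.37, lay in the stretch between Hoxb9 and Hoxb13, more than 10 kb from any Hox gene. A stretch of 69.0 kb without a listed peak ran from there across Hoxb9, Hoxb8, Hoxb7, Hoxb6, Hoxb5 and Hoxb4 into Hoxb3. Hoxb13, a gene of the tail end and the prostate, had a peak of 15.2 (10.3 to 21.6) 1944 bp outside it and outside the span, at chr11:96192272-96192472. It held 31 BLRP-MafG tags and 0 control tags, a ratio of 8.72 against the floor of 3 (exact lower limit 6.68). With the same floor of 3, the ratios of the Hoxb3 peaks were 10.1 and 7.59.

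Hoxc had the fewest peaks of the 4 spans. Its 116 kb held 1, of 19.6 (14.0 to 26.7), at chr15:102948882-102949082, with 40 BLRP-MafG tags and 0 control tags (ratio 11.2 against the floor of 3, exact lower limit 8.73). This peak lay outside any listed gene, between the lncRNA gene Hotair and Hoxc11, 5544 bp from the latter. The other 8 Hoxc genes had none within 10 kb. Hoxc12, on the other side, missed that window narrowly at 10373 bp, while Hoxc4, Hoxc5 and Hoxc6 were 48981 bp, 65026 bp and 49244 bp from a listed peak. A stretch of 87.9 kb from the peak to the end of Hoxc4 held none, and the next listed peak lay 48981 bp beyond that end. Of all autosomal tiles of 100 kb, 34.4% hold 1 listed peak or fewer, and 14.6% hold none. Among those touching 5 or more protein-coding genes, the closer setting, 14.3% hold 1 or fewer and 5.54% hold none.

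In Hoxd the span of 96.9 kb held 3 peaks, among them the highest of all 4 spans. It reached 30.9 (23.7 to 39.5) at chr2:74700102-74700302, 2439 bp downstream of the start of Hoxd9 and at the far end of that gene. Hoxd9 takes part in limb and spinal patterning, and Hoxd8 and Hoxd10 lie 4413 bp and 5096 bp from the same peak. The control held 4 tags there, more than at any other span peak, against 63 BLRP-MafG tags, a ratio of 13.3 (4.94 to 50.3). A peak of 16.2 (11.1 to 22.7) lay inside Hoxd3, the third group 3 paralogue, at chr2:74738810-74739010, with 33 BLRP-MafG and 0 control tags. The last, of 6.37, lay 1152 bp from Hoxd3 inside the lncRNA gene Haglr. Hoxd11 and Hoxd12, which pattern the distal limb, were 13186 bp and 11309 bp from the nearest peak, and Hoxd13, at the tail end, stood 4521 bp from a low peak of 6.37 (3.39 to 10.9).

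Group 3 genes recurred among the peaks inside genes. Of the 5 peaks inside a Hox gene, 4 lay in Hoxa3, Hoxb3 and Hoxd3 and 1 in Hoxd9, and there is no Hoxc3 gene. Group 3 genes are the longest of their clusters in this annotation, from 36279 bp in Hoxd3 to 44009 bp in Hoxa3, and made up 40.3% of the summed length of Hox genes. With so few peaks, the share of 4 in 5 is a description of position. Of the 12 span peaks, 5 lay in lncRNA genes, and Hoxa3 and 5730596B20Rik shared 1 of them. A further 3 lay in neither a Hox gene nor an lncRNA gene.

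Start sites were compared as well. RefSeq promoter windows, from 250 bases before to 50 after a start, were on hand for 24 starts of 22 Hox genes. Of these 24, 2 (8.33%) lay within 1 kb of a peak midpoint, those of Hoxa3 and Hoxa9, against 20.3% of 21263 starts of protein-coding genes. Within 10 kb the count was 11 (45.8%), against 57.4%. TGANNNNGC stood in 9 of the 24 windows (37.5%) and in 41.3% of all 32851 windows, both strands searched. TGCTGA stood in 2 (Hoxa10 and Hoxd12), or 8.33%, against 19.5%. TGACTCA, which neither of the other motifs contains, stood in 1 (Hoxd11), or 4.17%, against 5.20%. Neither Hoxa10 nor Hoxd12 had a peak within 1 kb of the start. With 2 windows holding TGCTGA and 2 starts near a peak among 24, this cannot show whether motif and peak go together. The Hoxa9 window also ended short of the peak near that start.

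The tallest peaks of the regions lay in the flanks, although the median flank peak was not higher than the median span peak. In the 8 flanks, of 100 kb each, lay 26 peaks, or 3.25 per 100 kb, with a median normalized tag count of 11.6 and a range from 5.88 to 85.8. Of these, 2 (7.69%) reached 50, against 9.87% of all listed peaks, so the flanks were ordinary in that respect. Their median deposited fold over the surrounding 10 kb was 19.9. Flanks beyond the group 13 genes held 15 peaks with a median of 8.82, and those at the other ends of the clusters held 11 with a median of 23.0. These medians rest on few peaks of single loci and were not compared by a test.

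Both peaks above 50 lay beyond Hoxb1, in the gene-poor stretch before Skap1, which encodes a T cell adaptor protein. The higher, of 85.8 (73.5 to 99.4), stood at chr11:96413194-96413394, 45040 bp from Hoxb1, with 175 BLRP-MafG tags and 0 control tags, a ratio of 49.2 against the floor of 3 (exact lower limit 39.6). The other, of 52.9 (43.4 to 63.9), stood at chr11:96387745-96387945, 19591 bp from Hoxb1, with 108 and 0 tags, a ratio of 30.4 against the floor. Their intervals lay above those of all 12 span peaks, the highest of which ended at 39.5. Hoxb1 was the nearest protein-coding gene to both. In the same flank stood peaks of 35.8 (28 to 45), 11.3 and 6.37.

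The highest peak of the flank beyond Hoxa13 was its only listed one, of 49 (39.9 to 59.6) at chr6:52294790-52294990. It lay 34010 bp from Hoxa13 and 18608 bp before Evx1, an even-skipped homeobox gene, and the control held 5 tags there, for a ratio of 16.9. Beyond Hoxd1 both peaks lay inside Mtx2, the gene of a mitochondrial import protein, the higher at 27.4 (20.7 to 35.6). Beyond Hoxd13 the highest was 22.1 (16.1 to 29.5), 16234 bp from Evx2, and a low one of 5.88 covered the shared start region of Lnpk and the lncRNA gene 4930445N08Rik. Of the 26 flank peaks, 2 lay within 10 kb of a Hox gene, Hoxb13 and Hoxd13. Each flank of 100 kb starts at the outermost Hox gene, so only its first 10 kb can lie that near. The count is thus a description of position.

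The Hoxc flanks differed in number of peaks, while their highest peaks were of similar height. Beyond Hoxc13, where no protein-coding gene stands within the 100 kb, 7 peaks were listed, the most of the 8 flanks, with a median of 8.82 and a highest of 23.5 (17.3 to 31.2). Over all autosomal tiles, with or without genes, the upper quartile is 4 peaks, 31.5% of tiles hold 4 or more and the highest holds 14. The share of tiles with 7 or more was not counted. Beyond Hoxc4 lay 2 peaks, of 11.8 and 22.5. Beyond Hoxb13 lay 2 as well, the one near that gene and one of 5.88 inside Ttll6.

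**Figure D4:**
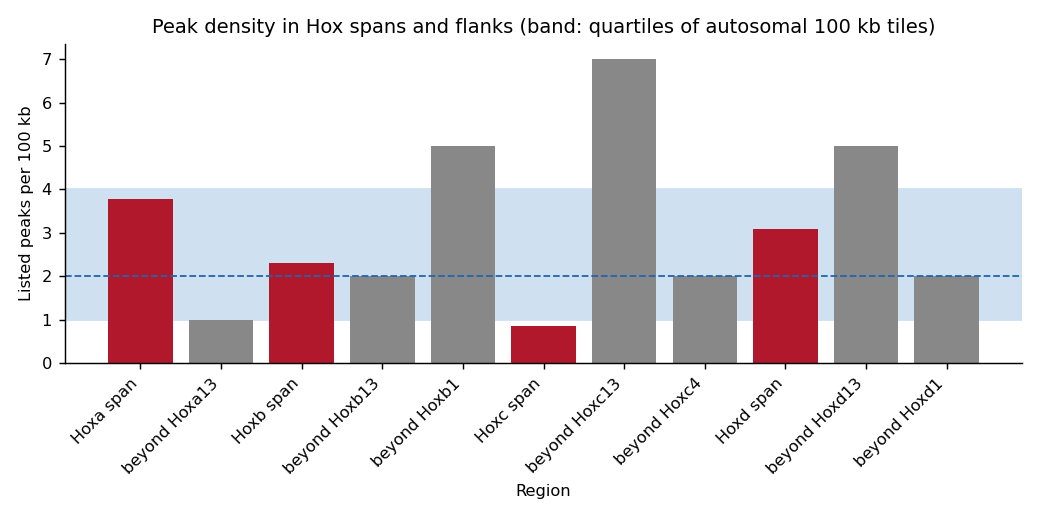
Listed peaks per 100 kb (vertical) in the 4 Hox spans (red) and 7 of the 8 flanks, named by the Hox gene they border (grey). The band gives the quartiles, 1 and 4, and the dashed line the median, 2, of 24405 autosomal tiles of 100 kb: the flanks beyond Hoxb1, Hoxc13 and Hoxd13 lie above the band, and the Hoxc span, with its 1 peak in 116 kb, is the lowest bar.

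The genes that work with or on the Hox clusters were more often near a peak than the Hox genes, but these lists hold many long genes. Of 9 cofactor genes of the PBC and MEIS families, 8 had a peak within 10 kb, and Meis3 had none. Pknox2, of the MEIS and PREP group, held a peak of 114.7 (100.4 to 130.3). Of 23 Polycomb and trithorax genes, 18 had a peak, led by Kmt2a, an activator of Hox genes, at 109.8 (95.9 to 125.1) and Jarid2, a Polycomb subunit gene, at 89.7 (77.2 to 103.7), while Men1, Phc1, Rbbp5, Ring1 and Suz12 had none. Of 12 retinoic acid genes, 10 had a peak, with 377.3 (351 to 405) at the receptor gene Rara and 88.2 (75.8 to 102.1) at Rxra, while Aldh1a3 and Rxrb had none. Against 74.5% of all protein-coding genes, none of these counts is called particular to its list.

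Homeobox relatives outside the clusters were mixed. Among 6 ParaHox genes, which descend from the same ancestral cluster as the Hox genes, 4 had a peak within 10 kb, where 74.5% of all protein-coding genes had one. Cdx2, a regulator of intestinal identity and of Hox genes, had one of 62.2 (51.9 to 74.0), 6207 bp outside it. Cdx1 held one of 35.3 (27.6 to 44.4), and Gsx1 and Gsx2 had none. Of the even-skipped genes beside the clusters, Evx2 had a peak of 6.37, the one that Hoxd13 shares, and Evx1 had none within 10 kb.

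Each Hox cluster has on its chromosome a gene of the CNC family, the partners with which small MAF proteins bind DNA. Nfe2, beyond Hoxc4, is the nearest at 211 kb, followed by Nfe2l1 beyond Hoxb1 at 449 kb, Nfe2l3 at 697 kb from the Hoxa span and Nfe2l2 beyond Hoxd1 at 910 kb. All 4 had a peak within 10 kb, as did 74.5% of all protein-coding genes. The stretches between cluster and CNC gene held from 3.08 to 3.78 peaks per 100 kb, with highest peaks from 73.0 to 85.8. For Nfe2l1 that highest peak was the one beyond Hoxb1 described above. The CNC genes' own peaks reached 90.7 (78.1 to 104.7) inside Nfe2l2 and 73.5 (62.2 to 86.3) inside Nfe2l3, against 20.1 (14.4 to 27.3) near Nfe2l1 and 18.1 (12.8 to 25.0) near Nfe2.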

How the data were processed

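ChIP-seq was carried out on livers in 2 groups of 2 libraries. The submitters' processing notes name Bowtie2, HOMER and build mm10, with versions not given in the sources used here. The authors called, per the file headers, peaks of 200 bp, requiring 10-fold over control (Poisson p-value of 1e-06) and 4-fold over the surrounding 10 kb (p-value of 0.0001). The deposited normalized tag count is a signal the authors scaled to 10000000 tags, and the deposited control signal is unscaled, with 0.5 for 0 tags. Fold values, as deposited, are linear ratios. The deposited peak score was not used, nor was 1 further column of BLRP-MafG tags scaled to the control. Depth was 20406492 BLRP-MafG tags, with a median of 25 of them and 1 control tag in a peak. The lowest listed peak held 9, so weaker signal may be present at genes where no peak is listed.

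Whole tags were recovered from the normalized tag counts (100% within 0.15 of a whole number) for exact Poisson and conditional binomial intervals (scipy 1.17.1); a ratio against 0 control tags used a floor of 3. Where the control held fewer than 3 tags but not 0, its own count was used. Such ratios stand higher than floored ones for the same BLRP-MafG tags and do not rank against them. Intervals and floors cover counting error only. Genes, starts and sequences came from RefSeq (GRCm38.p6, the assembly of mm10); exons were not separated. No test between groups was possible. Every Hox gene with a peak within 10 kb was counted, and most of them were named with their peak. Each span peak, the highest peak of 7 flanks and flank peaks of 50 or more were described. In each comparison list the 2 genes with the highest peak and those without one were taken. Some genes and 1 flank under these rules are not reported here. A few further flank peaks and distances were chosen after their values were seen. The members and lists were chosen with earlier results of these data known, and the backgrounds by gene length and by neighbouring gene number after the counts were seen. The placement of peaks and the intervals were tested on simulated data. Alternatives were other windows, stricter peak sets, other flanks and leaving out a cluster.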

Additional observations from a re-analysis of the deposited data

How the results depend on the processing

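The count of Hox genes near a peak followed the window: 16 of 39 at 10 kb became 5 at 1 kb, 29 at 20 kb and 38 at 50 kb. The Hox share stayed below that of all protein-coding genes up to 20 kb and passed it at 50 kb. Within 10 kb the count also depended on the peak set. With a fold over control of at least 20 it was 10, against 62.4% of all protein-coding genes. With heights at or above the general median it was 15, against 55.3% of all protein-coding genes. Counting peaks inside a gene only within 10 kb of an end left 16 Hox genes and lowered the share of all protein-coding genes to 69.2%. The median highest tag count over Hox genes, 0 at 10 kb, was 26.0 at 50 kb. The flanks held 26 peaks, which became 11 with the fold of at least 20, 12 with heights at or above the general median, 13 in flanks of 50 kb and 66 in flanks of 200 kb. With heights at or above the general median, the median of span and flank peaks rose from 13.2 to 22.8, by that choice itself. Leaving out a cluster, added after the data were examined, gave shares from 33.3% to 50.0%. The alternative by start sites was not run over all 39 genes, since starts were on hand for 22. No paired analysis was possible because the list holds 1 value per peak and group and none per library. At a median of 25 tags per peak, low peaks cannot be ranked among themselves.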
